A study of Mus musculus with 2 samples.

Results

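The gene Moxd1 and 9 genes of copper biology were followed in mouse liver after delivery of the microRNA miR-378. Moxd1 was chosen for its measured difference, which was the highest of all genes on these arrays, and the other members were named as its enzyme relatives (Dbh, Pam), copper transporters (Slc31a1, Atp7a, Atp7b), the copper-carrying plasma protein gene Cp, the metallothioneins Mt1 and Mt2, and the copper enzyme gene Sod1. They make up 10 of the 20652 genes that had a named probe. Each was read by 1 probe printed in 1 spot, and a probe was tied to its gene through the RefSeq transcript it carries.

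The Ad-378 group was male mice that received an adenovirus for overexpression of miR-378, per its label, and the Ad-Ctrl group was male mice given a control adenovirus. In both groups 1e9 plaque forming units were injected by tail vein when the mice were 8 weeks old, and each group was 1 pool of 5 livers read on 1 Agilent 1-colour array. The labels' protocols give collection 2 weeks later for both groups, while the description of the Ad-378 pool gives 3 weeks, so a difference in time cannot be told apart from the virus. The labels name neither a strain nor the insert of the control virus, and their extraction protocol, for liver, names a blood RNA kit with a globin depletion step. The title of the study places miR-378 in thyroid hormone action, bile acid synthesis and cholesterol balance. It does not name copper.

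Copper is taken up into cells by the membrane importer Slc31a1, is handed by small chaperone proteins to the enzymes that need it, and leaves through the pumps Atp7a and Atp7b. The liver is the main organ of copper balance: hepatocytes load copper onto ceruloplasmin, the product of Cp, and excrete the excess into bile, and loss of Atp7b causes Wilson disease in humans. Dbh and Pam are copper monooxygenases that make noradrenaline and amidate peptide hormones, and Moxd1 is related to Dbh in sequence and has no established substrate. Metallothioneins are small cysteine-rich proteins that bind zinc and copper, and their genes are induced by metals through the factor Mtf1.

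Metal-responsive transcription is the best known control of metallothionein genes. The sequence around the annotated start of Moxd1, Mt1 and Mt2 is therefore shown, to set the gene that differed most beside the metal-induced pair. The windows run from 250 bases before to 50 after the transcript start and come from RefSeq on build GRCm38.p6, each on the plus strand: chr10:24223267-24223566 for Moxd1, chr8:94178839-94179138 for Mt1 and chr8:94172368-94172667 for Mt2. Capitals mark the metal response element cores TGCACNC and TGCGCNC, which were searched on both strands, and no 2 matches overlapped.
Moxd1: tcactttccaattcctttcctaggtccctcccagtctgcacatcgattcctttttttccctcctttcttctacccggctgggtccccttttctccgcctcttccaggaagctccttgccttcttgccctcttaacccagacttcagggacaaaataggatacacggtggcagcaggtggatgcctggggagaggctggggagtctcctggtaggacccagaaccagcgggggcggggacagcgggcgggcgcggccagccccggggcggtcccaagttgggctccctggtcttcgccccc
Mt1: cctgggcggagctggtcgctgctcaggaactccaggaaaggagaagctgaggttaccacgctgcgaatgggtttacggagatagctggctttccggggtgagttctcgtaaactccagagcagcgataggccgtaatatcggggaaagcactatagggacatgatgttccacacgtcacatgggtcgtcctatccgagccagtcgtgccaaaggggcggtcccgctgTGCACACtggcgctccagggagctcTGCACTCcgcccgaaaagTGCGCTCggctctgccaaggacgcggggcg
Mt2: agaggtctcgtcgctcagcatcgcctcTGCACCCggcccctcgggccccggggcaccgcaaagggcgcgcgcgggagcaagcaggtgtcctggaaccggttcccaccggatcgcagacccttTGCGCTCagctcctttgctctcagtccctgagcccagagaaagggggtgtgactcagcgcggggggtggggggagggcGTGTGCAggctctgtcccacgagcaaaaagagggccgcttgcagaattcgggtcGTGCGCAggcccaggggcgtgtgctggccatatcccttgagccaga

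The Moxd1 window held 0 cores, the Mt1 window 3 and the Mt2 window 4. From the annotated start, the Mt1 cores lay at -23, 2 and 20 and the Mt2 cores at -223, -128, -50 and 4. The windows rest on the RefSeq start, other starts were not tested, and cores beyond a window are not counted. Of 32851 windows of 300 bases in the same table, 25.7% held at least 1 core, 1.97% held 3 or more and 0.517% held 4 or more. TGCACNC occurred in 12.6% of windows and TGCGCNC in 15.4%. Among the other members, the Atp7a window held 2 cores and the Atp7b window 1, and those of Dbh, Pam, Slc31a1, Cp and Sod1 held 0. A match describes the letters only, and no match says only that they are not in this window.

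Values below are the processed signal, a background-subtracted spot intensity, each with the scanner's own error. A log2 difference is Ad-378 minus Ad-Ctrl after each array was scaled to its 75th percentile, a signal of 695 in the Ad-378 pool and 800 in the Ad-Ctrl pool. Its 95% scanner range covers measurement on the array only. Each group was a single array, so the spread between replicates is unknown, no difference has a replicate check and no test was run. Of 43020 gene spots, 28262 (65.7%) were well above background on the Ad-378 array and 27161 (63.1%) on the Ad-Ctrl array, and 0 were saturated. Hepatocyte markers were well above background in both pools for 8 of the 8 that had a named probe. Their median log2 difference was 0.20, and their summed scaled signals (each signal in percent of its array's 75th percentile) were 126135 in the Ad-378 pool and 110405 in the Ad-Ctrl pool. The lower percentile of the Ad-378 array raises its scaled values, and the unscaled hepatocyte signals had no single direction. Alb had 157338 in the Ad-378 pool and 159091 in the Ad-Ctrl pool, Apoa2 193385 and 175074, and Cps1 69314 and 84447.

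Of the 10 members, 7 were well above background in both pools, 2 (Pam and Atp7b) were so only in the Ad-378 pool and 1 (Dbh) in neither. By 2-fold or more, 1 measured member (Moxd1) was higher in the Ad-378 pool and 0 were lower. Over the 14288 genes measured in both pools, which means well above background on both arrays, 405 (2.83%) were higher in the Ad-378 pool by 2-fold or more and 645 (4.51%) were lower by that much. Moxd1 was chosen from this same contrast, so nothing is read from its share. The 7 measured members had a median log2 difference of -0.10, with 3 positive and 4 negative, beside a median of 0.04 for all genes and quartiles of -0.28 and 0.30. Of all measured genes, 53.9% had a positive difference. That share and the 2.83% and 4.51% above are the background for the list counts below.

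**Figure D1:**
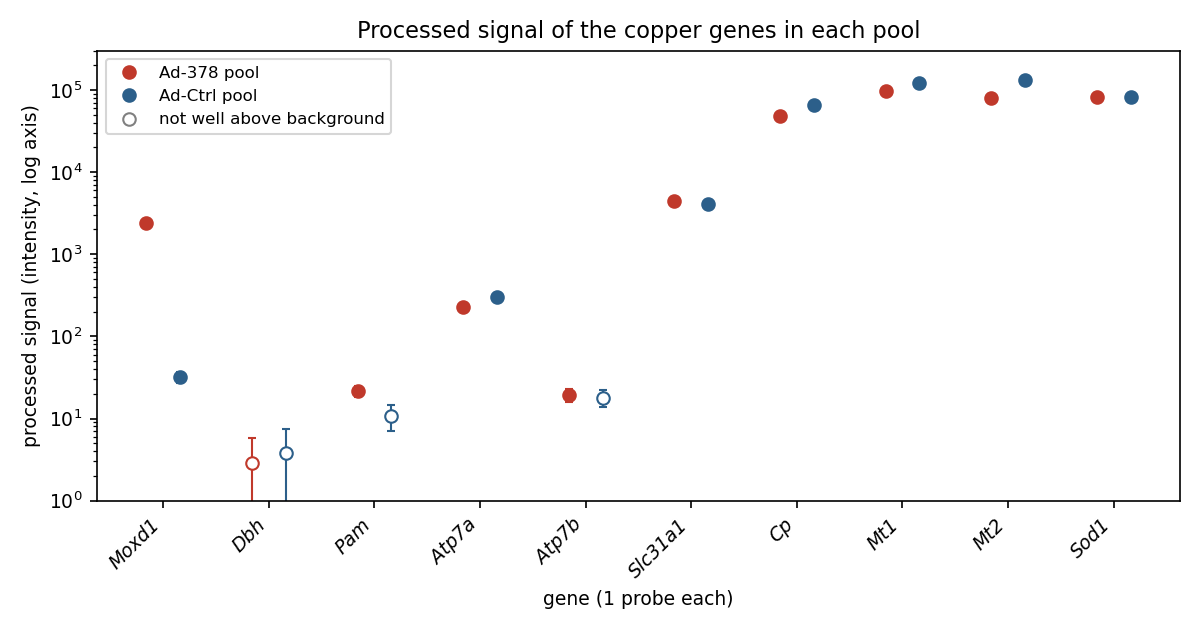
Processed signal (intensity, log axis) of each copper gene in the Ad-378 pool (red, left) and the Ad-Ctrl pool (blue, right), with bars for the scanner error and open circles where the probe was not well above background; the bars of Dbh run below the axis. The points are to be compared within a gene and not between genes, and Moxd1 is the gene whose points lie far apart, at 2420 in the Ad-378 pool and 31.7 in the Ad-Ctrl pool.

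Moxd1 (gene ID 59012, on chromosome 10), the monooxygenase without a known substrate, had a processed signal of 2420 ± 242 in the Ad-378 pool and 31.7 ± 4.75 in the Ad-Ctrl pool. The spot was well above background on both arrays, but in the Ad-Ctrl pool it was dim: the raw median signal was 2347.5 in the Ad-378 pool and 87.5 in the Ad-Ctrl pool, over a local background of 31.5 in the Ad-378 pool and 34 in the Ad-Ctrl pool. The log2 difference was 6.46 with a scanner error of 0.26 and a 95% scanner range of 5.95 to 6.97, which is 87.8-fold. It ranked 1 of 14288 genes, and the next gene had a log2 difference of 4.97. The size depends on the background subtraction of the dim Ad-Ctrl spot, and without it the difference was 4.95 on the raw median signals of the deposited series matrix. It stayed at rank 1 under each of the 8 alternatives run, including 20652 genes with no filter on background.

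**Figure D2:**
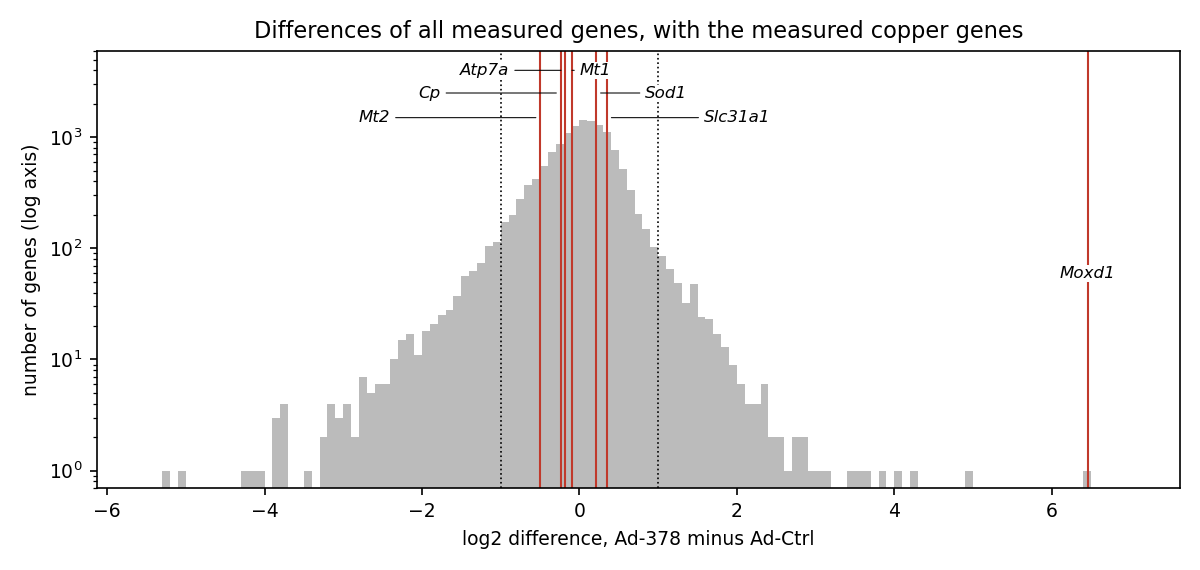
Number of genes (log axis) by log2 difference, Ad-378 minus Ad-Ctrl, over 14288 genes, with red lines at the 7 measured copper genes and dotted lines at 2-fold. Moxd1 stands at 6.46, to the right of every other gene, while the other 6 lie between -0.50 and 0.35.

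The genes whose 2 log2 values lay nearest to those of Moxd1, by Euclidean distance over 2 arrays only, were Acod1 at a distance of 1.15, Hsd3b5 at 1.80 and Ccl4 at 2.13. Acod1, which makes itaconate in activated macrophages, had a signal of 1157 in the Ad-378 pool and 42.6 in the Ad-Ctrl pool and a log2 difference of 4.97. Hsd3b5, a steroid dehydrogenase gene of mouse liver, had 1391 in the Ad-378 pool and 96.7 in the Ad-Ctrl pool, a difference of 4.05, and the chemokine gene Ccl4 had 1236 in the Ad-378 pool and 118 in the Ad-Ctrl pool, a difference of 3.59. The marker list for Kupffer cells and macrophages went the other way from Acod1 and Ccl4: 10 of 10 measured markers were lower in the Ad-378 pool, 2 of them (Cd5l at -1.12 and Adgre1 at -1.04) by 2-fold or more, with a median of -0.85 and summed scaled signals of 7232 in the Ad-378 pool and 13509 in the Ad-Ctrl pool. Over all genes, 4.51% were lower by 2-fold or more. In bulk tissue, fewer cells of a type and less RNA per cell cannot be told apart.

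The genes beside Moxd1 in the RefSeq gene order, which were chosen after the values were seen, did not share its difference. Stx7, which encodes an endosomal membrane fusion protein, lies next to it on one side and had 1523 in the Ad-378 pool and 2129 in the Ad-Ctrl pool, a log2 difference of -0.28. Ccn2, the connective tissue growth factor gene on the other side, had 1157 in the Ad-378 pool and 2046 in the Ad-Ctrl pool, a difference of -0.62. The ectonucleotidase genes Enpp1 and Enpp3 had differences of -0.10 and -0.34, and the trace amine receptor gene Taar9 was not well above background in either pool. All 4 measured neighbours were thus below 0, against 6.46 for Moxd1.

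The other monooxygenases were near the limit of detection. Dbh, which converts dopamine to noradrenaline, had 2.91 ± 2.91 in the Ad-378 pool and 3.76 ± 3.74 in the Ad-Ctrl pool. It was not well above background in either pool, so no fold is given. Pam, which amidates peptide hormones, had 21.6 ± 3.46 in the Ad-378 pool, where it was well above background, and 10.7 ± 3.71 in the Ad-Ctrl pool, where it was not. The bound for Pam is at least 1.63-fold higher in Ad-378. It sets the Ad-378 value against 15.2, the lowest signal well above background on the Ad-Ctrl array. Moxd2, the other relative of Moxd1, had 13.8 ± 2.84 in the Ad-378 pool, well above background, and 14.7 ± 3.71 in the Ad-Ctrl pool, not well above it, for a bound of at least 1.04-fold. Such bounds leave out the scanner error. Where the probe's own signal in the undetected pool exceeded that array's lowest signal well above background, the scaled ratio is given. Such a ratio is not a bound.

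Genes of the steps around Dbh and Pam showed no shared direction. In the catecholamine pathway 8 of 11 genes were measured in both pools, with 4 positive, 4 negative, 0 at least 2-fold apart and a median of 0.01. Th, which makes the dopamine precursor L-DOPA, came closest to 2-fold, with 428 in the Ad-378 pool and 248 in the Ad-Ctrl pool, a log2 difference of 0.99. The vesicular transporter gene Slc18a1 had a difference of 0.76, the monoamine oxidase gene Maob 0.49 and the decarboxylase gene Ddc -0.41. Ddc was read by 2 probes, and its difference lay between -0.55 and -0.05 over 7 of the alternatives. Of 9 markers of sympathetic nerve and chromaffin cells, 4 were measured in both pools, with summed scaled signals of 101 in the Ad-378 pool and 58.3 in the Ad-Ctrl pool. All 4 had a positive difference, but 2 of them, Pnmt at 0.11 with a scanner error of 0.31 among them, lay within the scanner error. Slc18a2 went the other way: it was well above background on the Ad-Ctrl array alone, with a scaled ratio of 1.35-fold in favour of Ad-Ctrl. The markers Dbh and Chgb were not well above background in either pool, and Th, Dbh, Pnmt and Slc18a2 belong to both lists.

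In peptide hormone processing 5 of 8 genes were measured, with 2 positive, 3 negative and a median of -0.01. Cpe, which trims basic residues from prohormones before Pam acts, had 136 in the Ad-378 pool and 401 in the Ad-Ctrl pool. Its log2 difference of -1.35 made it the 1 gene of this list at least 2-fold lower in the Ad-378 pool.

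Among the transporters, the importer Slc31a1 had 4481 ± 448 in the Ad-378 pool and 4039 ± 404 in the Ad-Ctrl pool. Its log2 difference of 0.35 had a 95% scanner range of -0.05 to 0.75, which includes 0. Atp7a, the copper pump of most cell types other than hepatocytes, had 229 ± 23.1 in the Ad-378 pool and 299 ± 30.1 in the Ad-Ctrl pool. Its difference of -0.18 had a range of -0.58 to 0.22, and 66.8% of all genes were at least as far apart. The importer and the pump did not differ from each other beyond the scanner range (-0.53, with a range of -1.10 to 0.03).

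Atp7b, the copper pump of hepatocytes, had 19.2 ± 3.47 in the Ad-378 pool and 18.0 ± 4.22 in the Ad-Ctrl pool. Its probe was well above background on the Ad-378 array alone. The scaled ratio was 1.22-fold in favour of Ad-378, which is not a lower bound, and the unscaled signals lie within each other's scanner error. The raw median signal was 62.5 in the Ad-378 pool and 66 in the Ad-Ctrl pool. Atp7b was therefore measured near background in a tissue that is known to use it, by a probe whose sequence is not used here.

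Over the list of copper transport and delivery genes, 19 of 20 were measured in both pools, with 12 positive, 7 negative and a median of 0.20. By 2-fold or more, 0 were higher and 1 was lower. That gene was Steap4, a metalloreductase that readies iron and copper for uptake, with 1493 ± 149 in the Ad-378 pool and 4715 ± 471 in the Ad-Ctrl pool and a log2 difference of -1.46. Steap2 of the same family was lower as well, at -0.56, but Steap3 was higher, at 0.53, so the family had no single direction. Of the copper chaperones, Cox11 had a difference of 0.82 and Cox17 of 0.55, both of which serve cytochrome c oxidase, and Ccs, which loads copper into the Sod1 protein, had 18358 in the Ad-378 pool and 13097 in the Ad-Ctrl pool, a difference of 0.69. Atox1, the chaperone that feeds the Atp7a and Atp7b pumps, had a difference of -0.02. The copper-binding prion protein gene Prnp had a difference of 0.61.

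Cp, whose product is the ferroxidase that carries most plasma copper, had 48133 ± 4813 in the Ad-378 pool and 65465 ± 6547 in the Ad-Ctrl pool. The log2 difference of -0.24 had a 95% scanner range of -0.64 to 0.16, which includes 0. Its relative Heph, a membrane ferroxidase, had 130 ± 13.3 in the Ad-378 pool and 229 ± 23.2 in the Ad-Ctrl pool, a difference of -0.61. Hephl1, the third ferroxidase gene, was not well above background in either pool.

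Mt1 had 98385 ± 9839 in the Ad-378 pool and 121023 ± 12102 in the Ad-Ctrl pool. The log2 difference was -0.10, with a range of -0.50 to 0.30. Mt2 had 80681 ± 8068 in the Ad-378 pool and 131384 ± 13138 in the Ad-Ctrl pool, a difference of -0.50 with a range of -0.90 to -0.10. This is 29.3% lower in the Ad-378 pool, and Mt2 and Moxd1 were the 2 measured members whose scanner range left out 0. Of all genes, 26.5% were at least as far apart as Mt2. Mt2 minus Mt1 was -0.40 with a range of -0.97 to 0.16, so the pair did not differ beyond the scanner range. The transcripts of Mt1 and Mt2 are alike, and whether each probe reads its own gene alone was not tested.

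The minor metallothioneins Mt3 and Mt4 are expressed mainly outside the liver. Mt3 had 82.0 in the Ad-378 pool and 112 in the Ad-Ctrl pool, a log2 difference of -0.25, and Mt4 had 23.1 in the Ad-378 pool and 25.6 in the Ad-Ctrl pool, a difference of 0.06. The metal-sensing factor gene Mtf1 had a difference of -0.52. Beside the metallothionein genes on chromosome 8, Nup93, a nuclear pore gene, had a difference of -0.50, the same as Mt2, and Bbs2 had -0.25, Herpud1 -0.19 and Nlrc5 -0.03. These neighbours were chosen after the values were seen.

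In the metallothionein and zinc list, 23 of 24 genes were measured in both pools, with 9 positive, 14 negative and a median of -0.10. Slc30a10, which encodes a manganese exporter, had 584 ± 58.5 in the Ad-378 pool and 180 ± 18.3 in the Ad-Ctrl pool, a log2 difference of 1.90, and was the 1 gene at least 2-fold higher. Slc39a6, a zinc importer gene, had 270 ± 27.1 in the Ad-378 pool and 644 ± 64.5 in the Ad-Ctrl pool, a difference of -1.05, and was the 1 gene at least 2-fold lower. That difference was under 2-fold on the series matrix values, at -0.93, and under normexp on the median signal, at -0.88. The zinc transporter gene Slc30a4 had a difference of -0.91. Slc39a9 was well above background on the Ad-378 array alone, with a scaled ratio of 1.47-fold in favour of Ad-378.

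Sod1, the cytosolic copper-zinc superoxide dismutase, had 82282 ± 8228 in the Ad-378 pool and 81567 ± 8157 in the Ad-Ctrl pool. The unscaled signals were nearly equal, and the scaling to the 75th percentile gave a log2 difference of 0.22 with a range of -0.18 to 0.62. Under quantile normalization the difference was 0. Mt2 minus Sod1 was -0.72, with a range of -1.28 to -0.15. Mt2 and Sod1 thus differed beyond the scanner range, while Mt1 and Cp each differed from Sod1 by less than the scanner range.

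Around Sod1, 17 of 17 genes for removal of superoxide and peroxide were measured, with 13 positive, 4 negative, 0 at least 2-fold apart and a median of 0.30. The median was 0.18 under quantile normalization and 0.15 under loess normalization. Catalase (Cat) had 48713 in the Ad-378 pool and 34958 in the Ad-Ctrl pool, a log2 difference of 0.68. The mitochondrial thioredoxin reductase gene Txnrd2 had a difference of 0.64 and the mitochondrial dismutase gene Sod2 of 0.59. Both Gpx3 and Sod3, whose products are secreted, were lower in the Ad-378 pool. Gpx3, the plasma glutathione peroxidase, had 560 in the Ad-378 pool and 1259 in the Ad-Ctrl pool, a difference of -0.97, and Sod3, the extracellular copper-zinc dismutase, had 3752 in the Ad-378 pool and 6292 in the Ad-Ctrl pool, a difference of -0.54.

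**Figure D3:**
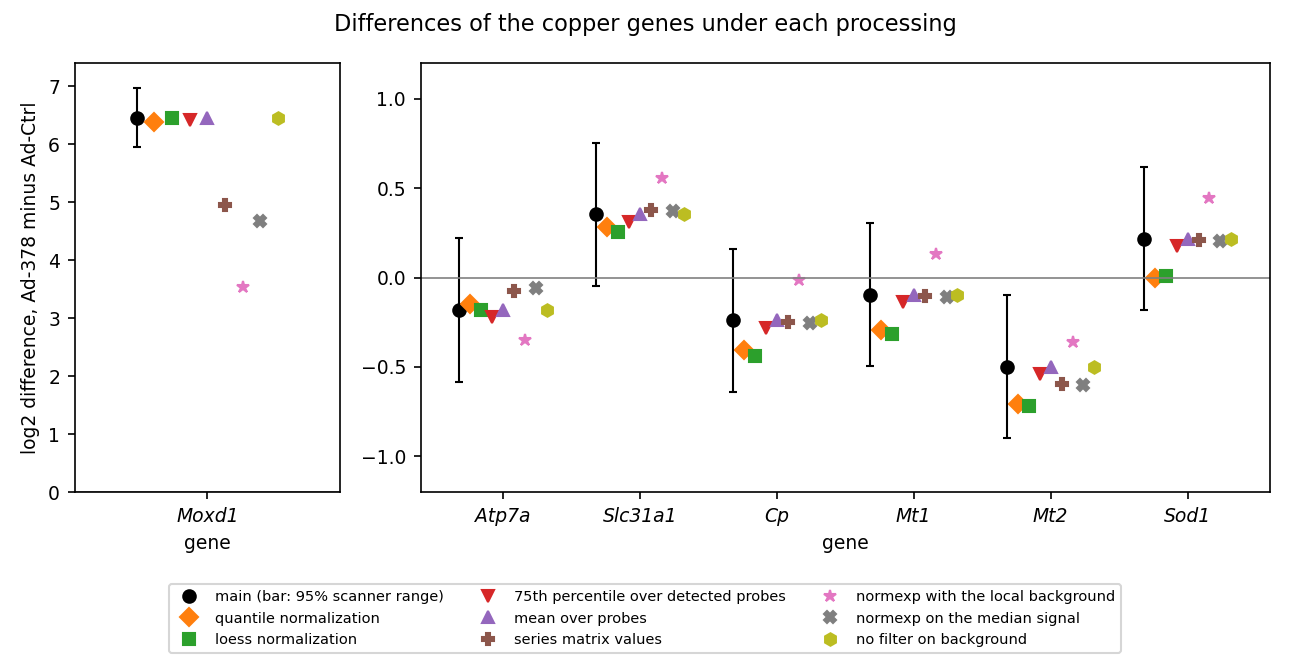
Log2 difference, Ad-378 minus Ad-Ctrl, of Moxd1 (left panel) and the other 6 measured copper genes (right panel, other scale) under the main processing, with a bar for the 95% scanner range, and under 8 alternatives. Moxd1 drops from 6.46 to 4.95 on the raw signals of the series matrix, 4.68 under normexp on the median signal and 3.54 under normexp with the local background, while the values of the other genes lie between -0.72 and 0.56.

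Over the copper-dependent enzymes, 12 of 18 genes were measured in both pools, with 4 positive, 8 negative and a median of -0.41, the lowest of the 3 lists that make up the copper genes. Moxd1 was the 1 gene at least 2-fold higher. The 3 genes at least 2-fold lower were all lysyl oxidases, which cross-link collagen and elastin outside the cell. Loxl1 had 68.4 ± 7.39 in the Ad-378 pool and 202 ± 20.6 in the Ad-Ctrl pool, a log2 difference of -1.36. Loxl4 had 57.8 ± 6.51 in the Ad-378 pool and 164 ± 16.9 in the Ad-Ctrl pool, a difference of -1.30. Loxl2 had 73.1 ± 7.76 in the Ad-378 pool and 172 ± 17.5 in the Ad-Ctrl pool, a difference of -1.03. Lox and Loxl3 were lower by less, at -0.80 and -0.28, so all 5 lysyl oxidases lay below 0. On the raw signals of the series matrix, where these dim spots keep their background, Loxl1 had -0.97, Loxl4 -0.86 and Loxl2 -0.68, and 0 of the 3 reached 2-fold.

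Markers of stellate cells and fibroblasts, which make lysyl oxidases, were lower as well. Of 10 markers, 9 were measured and 9 were lower in the Ad-378 pool, 5 of them at least 2-fold, with a median of -1.06 and summed scaled signals of 3964 in the Ad-378 pool and 7861 in the Ad-Ctrl pool. The share of all genes at least 2-fold lower was 4.51%, and 53.9% of all genes had a positive difference. The collagen genes Col3a1, Col1a1 and Col1a2 had log2 differences of -2.71, -2.22 and -1.63, and the matrix proteoglycan gene Lum had -1.94. The receptor gene Pdgfrb had -1.06, which was under 2-fold on the series matrix values (-0.99) and under normexp on the median signal (-0.96), while the stellate gene Lrat had -0.01 and Des was not well above background in either pool. Their part in the lysyl oxidase differences was not tested.

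The amine oxidases differed among themselves. Aoc1, which degrades histamine and diamines, had 15.1 ± 3.45 in the Ad-378 pool and 41.0 ± 5.80 in the Ad-Ctrl pool. Its probe was well above background on the Ad-Ctrl array alone. The scaled ratio was 2.36-fold in favour of Ad-Ctrl, which is not a lower bound. Aoc2 had 32958 in the Ad-378 pool and 30899 in the Ad-Ctrl pool, a log2 difference of 0.30, and Aoc3 was not well above background in either pool. Markers of bile duct cells, a small compartment of the liver, had summed scaled signals of 827 in the Ad-378 pool and 356 in the Ad-Ctrl pool, with 4 of 5 measured markers higher in the Ad-378 pool. Most of both sums came from Spp1, whose signal was 4997 in the Ad-378 pool and 2344 in the Ad-Ctrl pool, a log2 difference of 1.30. Cftr had a difference of 1.75, which was 0.98 on the series matrix values. Of the keratin markers, Krt19 was lower, at -0.36, and Krt7 was not well above background in either pool.

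**Figure D4:**
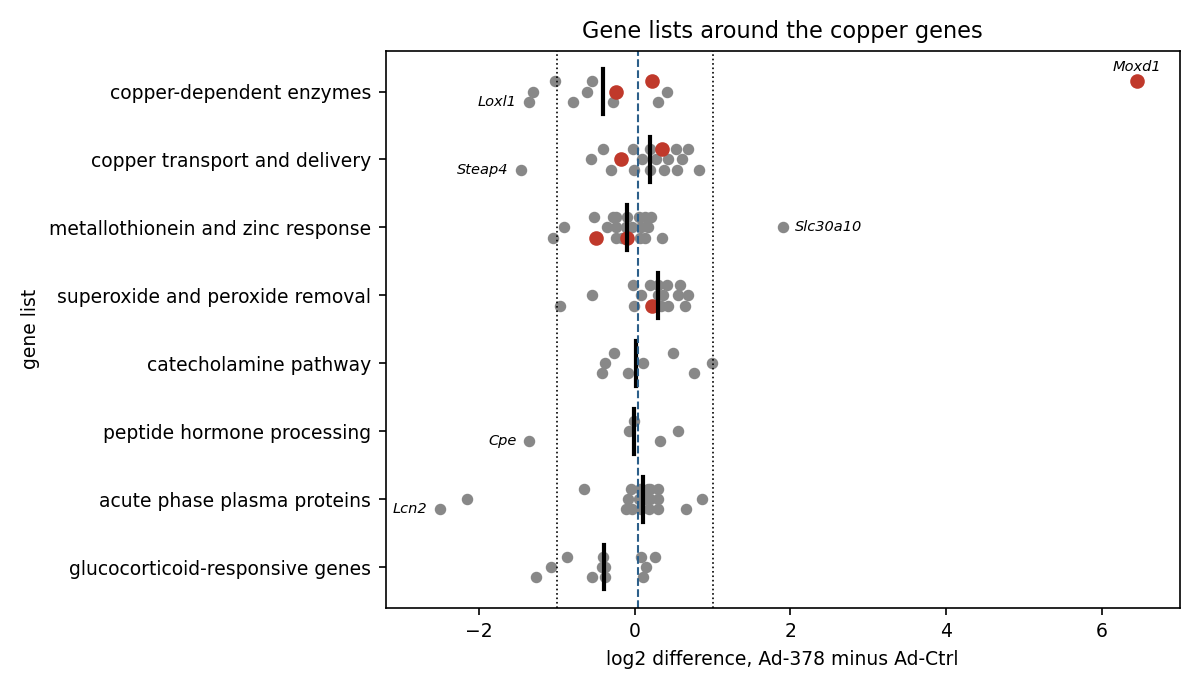
Log2 difference, Ad-378 minus Ad-Ctrl, of each gene measured in both pools (points) by gene list, with the 7 measured members in red (Sod1 is in 2 lists), the list median as a black bar, the median of all genes as a dashed line and 2-fold as dotted lines. Moxd1 stands alone at 6.46, and the medians of the lists lie between -0.41 and 0.30.

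The copper genes as a whole, 43 genes made of the 3 lists without the zinc transporter families, had a median close to that of all genes. Of the 43, 36 were measured in both pools, 3 in the Ad-378 pool only, 1 in the Ad-Ctrl pool only and 3 in neither. The measured genes had 17 positive and 19 negative differences and a median of -0.01, beside 0.04 for all genes. By 2-fold or more, 1 of 36 was higher and 4 of 36 were lower. The shares over all genes were 2.83% and 4.51%, so under the main processing the share that was lower was larger among the copper genes. On the series matrix values 1 of 36 copper genes was lower by 2-fold or more, beside 393 of 14288 over all genes. Under normexp on the median signal it was again 1 of 36, beside 339 of 14288, so the larger share depends on the processing. Without Moxd1 the median was -0.02, with 0 of 35 genes at least 2-fold higher, and the next highest copper gene, Cox11, had a log2 difference of 0.82.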

How the data were processed

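Liver RNA of 2 pools was read on Agilent 1-colour arrays of 44397 spots. The deposited scanner values are intensities, already background-subtracted and detrended within the array in the processed signal, per the file headers, and not scaled between arrays. Deposited flags for background, saturation and outliers are other values of 0 or 1. Feature Extraction is given as version 9.1 in the submitters' processing notes and as 11.0.1.1 in the file headers, and the headers name build mm9. The deposited series matrix equals the raw median intensity in 100% of values, linear and uncentred, with column medians of 95 (Ad-378) and 103 (Ad-Ctrl).

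Control spots and outlier-marked spots (123 gene spots per array) were left out and spots of a probe averaged. Processed signals were put on the log2 scale and the array's 75th percentile over 39401 probes was subtracted. Of the probes, 27219 matched a single RefSeq gene (GRCm38.p6). A gene took its brightest probe well above background in both pools. Where 1 pool only was above background, the fold is a bound. It is the scaled ratio where the undetected signal exceeded its array's lowest signal well above background. The scanner error comes from the deposited spot errors. For probes printed 10 times, the SD of the log2 signal between spots was 0.065 (Ad-378) and 0.060 (Ad-Ctrl) at the median. The number of arrays limits the precision, and no test between groups was possible.

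The members and lists were chosen with earlier results of these data known. Named were all members, genes of the pathway lists at least 2-fold apart or otherwise up to 4 with the largest differences, and the 3 genes nearest to Moxd1. Cell type markers and other genes named beyond this were chosen after their values were seen. The alternatives were quantile and loess normalization, the percentile over detected probes, the mean over probes, the series matrix, normexp (offset 50), no filter, and thresholds of 1.5-fold and 3-fold. The steps were tested on simulated data. Python 3.11.15, numpy 2.4.6, pandas 2.3.3, statsmodels 0.14.6, R 4.3.3 and limma 3.58.1 were used.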

Additional observations from a re-analysis of the deposited data

How the results depend on the processing

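No paired analysis was possible because Ad-378 and Ad-Ctrl share replicate number 1 only. Genes at least 2-fold higher and lower in the Ad-378 pool numbered 405 and 645, against 222 and 393 on the series matrix values, 178 and 1205 under normexp with the local background, 191 and 339 under normexp on the median signal (chosen after seeing the data), 1059 and 1166 with no filter on background, 1256 and 1721 at 1.5-fold, and 106 and 201 at 3-fold. Moxd1 had a log2 difference of 4.95 on the series matrix values, 3.54 under normexp with the local background and 4.68 under normexp on the median signal. In normexp with the local background, 1 Ad-Ctrl spot at -6224 after subtraction moved the fitted background mean to -175.1, against -10.62 for Ad-378. That setting changed the sign of 5 of 21 results and turned Mt1 to 0.13 and the folds of Pam and Atp7b to -0.89 and -1.02 (log2), and the ranges here leave it out. Over the other 7 settings Mt2 stayed between -0.72 and -0.50, Cp between -0.44 and -0.24, Mt1 between -0.31 and -0.10, Atp7a between -0.22 and -0.06, Slc31a1 between 0.25 and 0.38 and Sod1 between 0 and 0.22. Over the settings that give a bound, that of Pam lay between 0.44 and 0.74 (log2). The median of the copper genes stayed between -0.16 and -0.01, while that of the catecholamine list changed sign in 5 of 7 settings, peptide processing in 4 and acute phase proteins in 2. The median lay between 0.15 and 0.30 for superoxide and peroxide removal and between -0.16 and -0.08 for the metallothionein and zinc list. Cpe had -0.99 under normexp on the median signal, which is under 2-fold. Precision near background limits Dbh, Pam, Atp7b and the Ad-Ctrl value of Moxd1.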

Other observations

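Cp belongs to the acute phase proteins of the plasma, and the metallothioneins are induced by glucocorticoids as well as by metals, so both programmes were read beside them. Of 20 acute phase genes measured, 13 had a positive log2 difference and 7 a negative one, with a median of 0.11 and 2 at least 2-fold lower in the Ad-378 pool. Those were Lcn2, an iron-scavenging protein gene, with 3069 in the Ad-378 pool and 20076 in the Ad-Ctrl pool (-2.51), and the orosomucoid gene Orm3, with 293 in the Ad-378 pool and 1501 in the Ad-Ctrl pool (-2.16). Saa3 was on the higher side at 0.86.

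Of 12 glucocorticoid-responsive genes measured, 8 were lower in the Ad-378 pool, with a median of -0.39. The kinase gene Sgk1 had 5146 in the Ad-378 pool and 14309 in the Ad-Ctrl pool (-1.27), and the phosphatase gene Dusp1 had 3647 in the Ad-378 pool and 8839 in the Ad-Ctrl pool (-1.07). Tsc22d3 had -0.87, while the liver enzyme genes Tdo2, Tat and Pck1 had 0.26, 0.14 and 0.11. No test was possible with 1 array per group.

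Markers of other cells were read in the same way. Neutrophil markers had a median of -0.22 over 7 measured genes, 3 positive and 4 negative, while their summed scaled signals went the other way, at 1446 in the Ad-378 pool and 1273 in the Ad-Ctrl pool. Most of both sums came from Csf3r, which had a log2 difference of 0.24. For T and NK cells the median was -0.20 over 6 genes, 3 positive and 3 negative, again with the higher sum in the Ad-378 pool, at 1138 against 1018 in the Ad-Ctrl pool. Those sums came mostly from Nkg7 and Cd4, with log2 differences of 0.02 and 0.48. Sinusoidal endothelium had a median of -0.23 over 8 genes, 7 of them negative, and sums of 4665 in the Ad-378 pool and 5645 in the Ad-Ctrl pool. B and plasma cells had a median of 0.57 over 5 genes, 5 of them positive, and sums of 112 in the Ad-378 pool and 59.2 in the Ad-Ctrl pool.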
